A study of Homo sapiens with 6 samples.

Results

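The genes described here are 10 members of the Toll-like receptor system and its MYD88 branch: the receptors TLR1, TLR6, TLR7, TLR9 and TLR10, the receptor-like protein CD180, the transport protein UNC93B1, the adaptor MYD88, and the kinases IRAK1 and IRAK4. Members were taken as every probe set whose platform annotation gives exactly 1 of these symbols. That choice gave 15 of the 54613 probe sets that were not controls, for 9 of the 10 genes. No probe set carried the symbol IRAK4 in the annotation used here, and IRAK4 was not analysed here. Of the 15 probe sets, 12 passed the filter on dim signals, which kept probe sets whose mean was not under the 40th percentile (a signal of 53.4), and they stood for 8 genes. The remaining 3, both TLR7 probe sets and 1 of UNC93B1, lay below it.

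RNA came from RL, an established human B lymphoid cell line with the genotype t(14,18)+, the translocation that marks follicular lymphoma. MALC, multicellular aggregates of RL cells collected after 10 days of culture, were set against RL cells taken from suspension in exponential growth. All were untreated, and each form was represented by 3 samples on 1 Affymetrix U133 Plus array each. The labels do not say that the samples came from separate cultures, so the p-values speak for the spread among these arrays alone, and that spread may be technical. Age of culture and aggregation cannot be told apart.

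Toll-like receptors recognise molecules of microbes. TLR1 and TLR6 sit at the cell surface, where each pairs with TLR2 to bind bacterial lipopeptides, and TLR10 is a relative of both with a less settled ligand. TLR7 senses single-stranded RNA and TLR9 senses unmethylated CpG DNA inside endosomes, and both need UNC93B1 to travel there from the endoplasmic reticulum. After ligand binding TLR1, TLR6, TLR7 and TLR9 recruit MYD88, which gathers IRAK4, IRAK1 and IRAK2 into a complex. That complex acts through TRAF6 on NF-kB and interferon regulatory factors. CD180 has the outer part of a Toll-like receptor but lacks the signalling domain, and on B cells it works together with LY86. B cells are among the few lymphocytes that use TLR7, TLR9 and TLR10, and activating changes of MYD88 are known in several B cell lymphomas.

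MYD88 and TLR9 were both lower in MALC, and their promoters are shown because they carry different known elements of B cell and immune gene promoters. Each line holds the 250 bases before the gene start from RefSeq (GRCh38.p14), 5′ to 3′ in the direction of the gene. The window of MYD88 is chr3:38138411-38138660 (plus strand) and that of TLR9 chr3:52225646-52225895 (minus strand), and capitals mark every match, on either strand, to the 6 motifs named after the sequences.
MYD88: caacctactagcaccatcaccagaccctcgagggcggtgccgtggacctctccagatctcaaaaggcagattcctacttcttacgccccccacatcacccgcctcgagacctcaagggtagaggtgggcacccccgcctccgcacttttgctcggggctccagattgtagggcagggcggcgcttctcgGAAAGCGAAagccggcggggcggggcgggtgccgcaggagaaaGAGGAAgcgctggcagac
TLR9: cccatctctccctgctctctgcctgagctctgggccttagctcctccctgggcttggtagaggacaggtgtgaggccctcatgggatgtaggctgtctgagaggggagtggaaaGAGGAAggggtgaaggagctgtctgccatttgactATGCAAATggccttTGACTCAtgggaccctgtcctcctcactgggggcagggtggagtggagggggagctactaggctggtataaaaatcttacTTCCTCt

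The motifs searched were the octamer ATGCAAAT (bound by OCT1 and OCT2), the interferon-stimulated response element GAAANNGAA, the PU.1 core GAGGAA, an NF-kB site GGNNTTTCC, an AP-1 site TGANTCA and the hypoxia-factor core ACGTG. MYD88 held 1 response element beginning 61 bases before the start and 1 PU.1 core at 18 bases. TLR9 held 1 octamer at 101 bases, 1 AP-1 site at 87 bases, and PU.1 cores at 136 and 7 bases. No matches overlapped in either window. Among 35116 promoter windows of the same length, 1.63% held the octamer, 6.88% the response element, 23.6% the PU.1 core, 5.48% the NF-kB site, 6.57% the AP-1 site and 18.5% the hypoxia-factor core. The table held promoters for 6 of the 10 members. Those of CD180, IRAK1, IRAK4 and TLR6 are not printed, and the IRAK1 window had no match to any of the 6 motifs. CD180 held 1 AP-1 site at 124 bases and TLR6 held 1 PU.1 core at 195 bases. IRAK4 held hypoxia-factor cores at 118 and 93 bases. These matches are letters in a sequence, binding was not measured, and a link between the matches and the changes was not tested.

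The arrays had similar overall signal, with medians of 80.75 to 81.67 in MALC and 80.88 to 81.56 in suspension. Samples 2 and 3 of each form were nearly alike (Pearson r across probe sets 0.99764 in MALC and 0.99826 in suspension), while sample 1 stood further from them (0.99079 to 0.99189 in MALC and 0.99129 to 0.99185 in suspension). Markers of B cells were bright: the summed signal of MS4A1, CD22, CD79A, CD79B and PAX5 lay between 27800 and 31900 in MALC and between 28000 and 33400 in suspension. Summed signals of 6 monocyte and macrophage markers were 300 to 324 in MALC and 300 to 330 in suspension, with 2 of 6 above the filter. Those of 5 T and NK cell markers (3 above the filter) were 297 to 321 in MALC and 334 to 342 in suspension. Those of 6 stromal and endothelial markers (5 above the filter) were 636 to 696 in MALC and 748 to 1000 in suspension, where COL1A2 alone reached 346.6 in suspension 2. Plasmacytoid dendritic cell markers (3 of 6 above the filter) summed to 8980 to 10600 in MALC and 6230 to 7090 in suspension, nearly all of it TCF4, which B cells also express. The defining plasmacytoid marker CLEC4C lay below the filter at 17.84 to 25.54 in MALC and 19.64 to 22.60 in suspension. GZMB and NRP1 lay below it as well, whereas LILRA4 and IL3RA passed it. LILRA4 averaged 89.5 in aggregates beside 101.7 in suspension, and IL3RA averaged 116.9 beside 145.9. All RNA came from RL, an established B lymphoid cell line, so other cell types are not part of the design. The marker signals were not used as a measure of purity, and whether cells other than B cells had a part in the results was not tested.

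The comparison asked how the expression of these genes in aggregates differed from that in suspension. IRAK1 fell in MALC on both of its probe sets, by 1.80-fold on the brighter one. MYD88 and TLR9 fell by 1.39- and 1.56-fold, each on its only probe set. TLR10 fell on 1 of its 2 probe sets. TLR6 rose on 1 of its 2 probe sets, while its other probe set pointed the other way without passing. CD180, TLR1 and UNC93B1 were lower in mean and did not pass the test. In the fit over probe sets (limma on log2 of signal + 16, Benjamini-Hochberg adjusted p under 0.05), 5 member probe sets were lower, 1 was higher and 6 were not called. Over all 32768 probe sets tested 41.7% were called, 20.4% lower and 21.2% higher in MALC. The arrays of the 2 forms did not overlap for 8 of the 12 member probe sets, 7 of them lower in MALC, beside 56.1% and 30.3% of all probe sets tested. In RNA of whole cultures, fewer expressing cells and less RNA per cell cannot be told apart. The median log2 change was -0.43 over the 12 probe sets and -0.04 over all probe sets tested. Adding 16 to each signal before log2 shrinks the changes of dim probe sets, and signals of different probe sets are not compared.

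**Figure D1:**
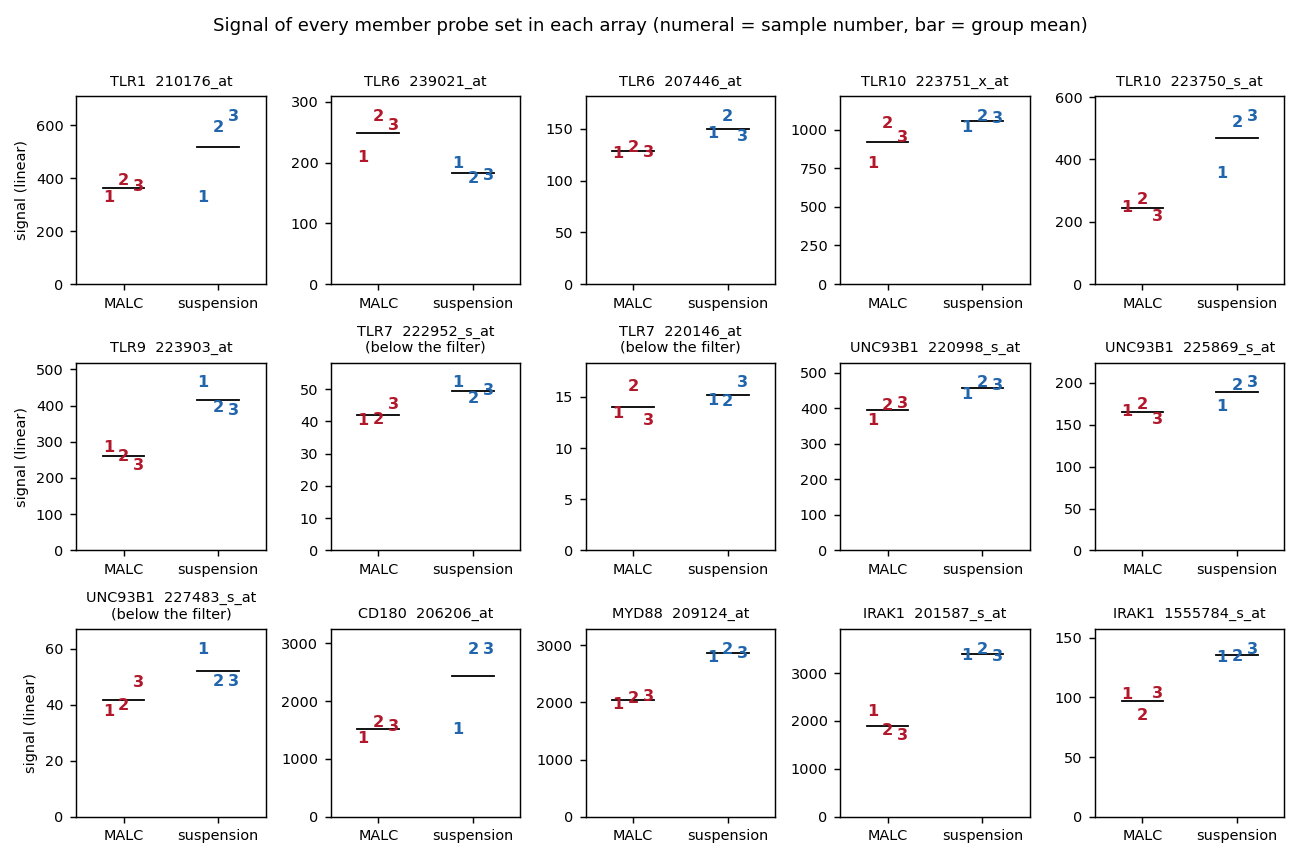
Linear signal (vertical axes, from 0) of the 15 probe sets in each array, with MALC in red on the left and suspension in blue on the right of each panel; numerals are sample numbers and bars are group means. MYD88 and IRAK1 are separated cleanly between the forms, while suspension 1 lies near the MALC arrays for CD180 and TLR1.

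Among the receptors of the cell surface, TLR1 (probe set 210176_at) had signals of 328.1, 393.0 and 368.0 in MALC 1 to 3, against 325.5, 591.6 and 633.6 in suspension 1 to 3. Suspension 1 lay just below the lowest MALC array, the other suspension arrays lay above every MALC array, and the groups overlapped. The log2 change of -0.44 (95% interval -0.97 to 0.09) did not pass in limma (adjusted p = 0.16). Without suspension 1 it was -0.73 with an adjusted p of 0.00213, and without suspension 3 it was -0.27 with an adjusted p of 0.406. It did not pass with samples 2 and 3 of each form averaged either (-0.33, adjusted p = 0.454).

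TLR6 was measured by a pair of probe sets that disagreed. Probe set 207446_at had 126.4, 132.2 and 127.3 in MALC, against 145.4, 162.0 and 142.4 in suspension. Every MALC array was lower, yet the log2 change of -0.20 (95% interval -0.36 to -0.04) narrowly missed the threshold in limma (adjusted p = 0.052). Probe set 239021_at had 207.8, 276.1 and 260.7 in MALC, against 197.9, 173.5 and 179.3 in suspension. Here every MALC array was higher, MALC 1 only slightly so, and the log2 change was 0.40 ± 0.11 (SE, n = 3 each), with an adjusted p of 0.023 from limma. That call was lost without MALC 2 (adjusted p = 0.0846), MALC 3 (0.0813), suspension 2 (0.0774) or suspension 3 (0.0712), and with samples 2 and 3 of each form averaged (0.187). Since the gene fit took the brighter probe set, TLR6 counted as higher there, and the direction of TLR6 as a gene rests on which probe set stands for it.

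TLR10 lies beside TLR1 and TLR6 on chromosome 4, in the order TLR10, TLR1, TLR6 with no other protein-coding gene between them in RefSeq. Probe set 223750_s_at had 247.2, 271.3 and 215.7 in MALC, against 353.5, 517.5 and 538.2 in suspension. All MALC arrays were lower, and suspension 1 was the lowest of its form. The log2 change was -0.88 ± 0.16 (SE, n = 3 each; 1.84-fold lower in MALC, adjusted p = 0.0043 in limma), the largest in size among the member probe sets. With samples 2 and 3 of each form averaged the call was lost at an adjusted p of 0.0521, with a log2 change of -0.78. The brighter probe set 223751_x_at had 783.9, 1040 and 949.9 in MALC, against 1015, 1087 and 1072 in suspension. Its groups overlapped through MALC 2, and its log2 change of -0.20 (95% interval -0.45 to 0.05) did not pass (limma adjusted p = 0.172). Without MALC 1 the change was -0.09 (adjusted p = 0.351). The _x_at suffix marks probes that may also match other transcripts.

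The endosomal receptor TLR9 (223903_at) had 284.0, 260.6 and 235.7 in MALC, against 462.7, 394.6 and 386.7 in suspension. The groups were well apart, and suspension 1 was the highest of its form, unlike for TLR1, TLR10 and CD180. TLR9 averaged 260.1 ± 24.2 in MALC and 414.7 ± 41.8 in suspension (SD, n = 3 each), a log2 change of -0.64 ± 0.10 (SE; limma adjusted p = 0.00216). It stayed past the threshold under all 17 alternatives run on probe sets, with log2 changes between -0.70 and -0.56. Among the 6 member promoters in the RefSeq table, that of TLR9 alone held the octamer. A link between the octamer and the fall of TLR9 was not tested, and the window of IRAK1, which also fell, had no motif match.

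Both TLR7 probe sets were dim, with mean signals at percentiles 36.2 (222952_s_at) and 8.76 (220146_at) of all probe sets that were not controls. Probe set 222952_s_at had 40.1, 40.5 and 45.2 in MALC, against 51.9, 47.0 and 49.5 in suspension, and 220146_at had 13.35, 16.05 and 12.72 in MALC, against 14.7, 14.5 and 16.4 in suspension. Neither passed the filter, so neither was tested in the comparison of probe sets. With no filter their limma adjusted p-values were 0.0627 and 0.44. Every MALC array was lower for 222952_s_at and the groups overlapped for 220146_at. No detection calls were used here, so whether TLR7 was expressed at all is not known from these values.

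UNC93B1, the transport protein that TLR7 and TLR9 depend on, was lower in mean on all 3 of its probe sets, and none was called. Probe set 220998_s_at had 365.0, 406.3 and 414.2 in MALC, against 438.1, 471.0 and 464.0 in suspension. No MALC array reached the suspension arrays, and the log2 change was -0.21 (95% interval -0.39 to -0.02, limma adjusted p = 0.0689). When the fit was blocked by sample number, the same change passed narrowly (adjusted p = 0.049), and with samples 2 and 3 of each form averaged it did not pass (-0.22, adjusted p = 0.25). Probe set 225869_s_at had 165.7, 174.3 and 156.6 in MALC, against 171.4, 196.8 and 200.0 in suspension. Suspension 1 lay within the MALC range, and the change of -0.18 (95% interval -0.36 to 0.01) did not pass (limma adjusted p = 0.115), although it did without suspension 1 (adjusted p = 0.037). The dim probe set 227483_s_at had 37.5, 39.8 and 47.9 in MALC, against 59.8, 48.4 and 48.3 in suspension, below the filter. The _s_at suffix marks probes shared by several transcripts.

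CD180 (206206_at), the B cell receptor-like protein, had 1345, 1630 and 1567 in MALC, against 1505, 2892 and 2895 in suspension. Suspension 1 lay inside the MALC range, while suspension 2 and 3 were 1.92-fold above suspension 1. The group means were 1514 ± 150 in MALC and 2431 ± 802 in suspension (SD, n = 3 each), and the log2 change of -0.62 (95% interval -1.18 to -0.06) did not pass in limma (adjusted p = 0.0734). It passed when blocked by sample number (adjusted p = 0.0173) and when suspension 1 was dropped (-0.93, adjusted p = 0.000957), but not with samples 2 and 3 of each form averaged (adjusted p = 0.291). LY86, its partner, was slightly lower in MALC: 1447, 1590 and 1447 in MALC, against 1624, 1918 and 1921 in suspension, a log2 change of -0.28 (limma adjusted p = 0.0345). The LY86 call was lost without any single array except suspension 1 (adjusted p between 0.0546 and 0.121).

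MYD88 (209124_at), an adaptor of Toll-like receptors, had 1968, 2065 and 2108 in MALC, against 2784, 2927 and 2860 in suspension. The arrays of each form lay close together and the forms did not overlap. MYD88 averaged 2047 ± 71.4 in MALC and 2857 ± 71.3 in suspension (SD, n = 3 each), a log2 change of -0.48 ± 0.06 (SE; 1.39-fold lower in MALC, limma adjusted p = 0.000872). Leaving out any 1 array gave log2 changes between -0.50 and -0.45, and the call held in all 17 alternatives.

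IRAK1, the kinase recruited to MYD88, fell on both probe sets. Probe set 201587_s_at had 2202, 1790 and 1695 in MALC, against 3363, 3496 and 3351 in suspension. MALC 1 was the highest of the aggregates and still far below every suspension array. The means were 1896 ± 270 in MALC and 3404 ± 80.4 in suspension (SD, n = 3 each), a log2 change of -0.85 ± 0.10 (SE; 1.80-fold lower, limma adjusted p = 0.000738). The much dimmer 1555784_s_at had 102.8, 85.1 and 103.2 in MALC, against 133.2, 134.1 and 140.4 in suspension. It showed the same direction with a log2 change of -0.43 ± 0.08 (SE, n = 3 each; limma adjusted p = 0.00437). Both IRAK1 calls held in every alternative in which the probe sets were tested.

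**Figure D2:**
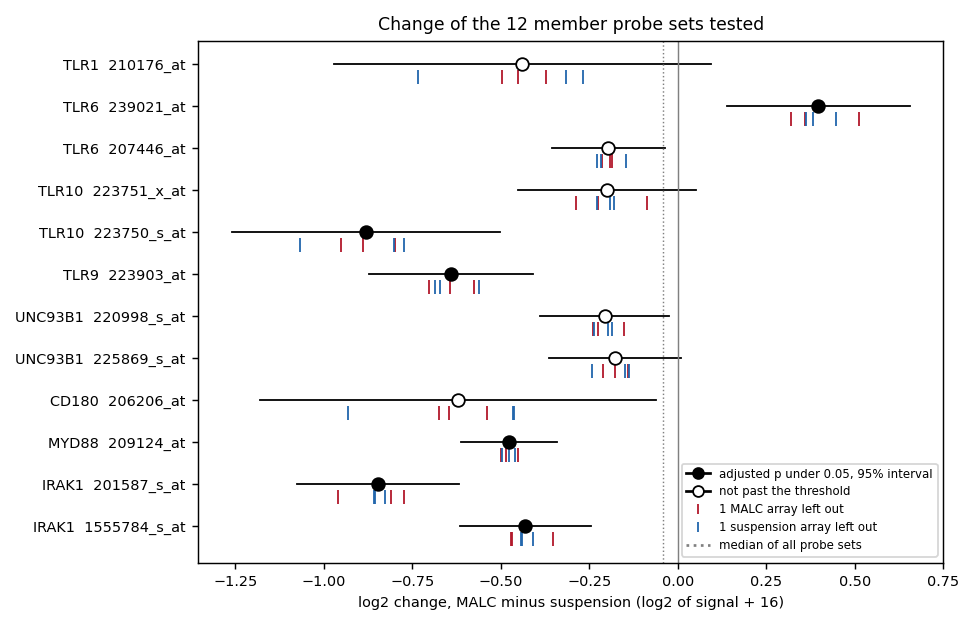
Log2 change (MALC minus suspension, horizontal axis) of the 12 tested probe sets with 95% intervals; filled points passed the adjusted threshold, and coloured ticks give the change with 1 array left out. MYD88 ticks stay between -0.50 and -0.45, whereas the tick without suspension 1 moves CD180 to -0.93 and TLR1 to -0.73.

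With each gene represented by its brightest probe set, 3 member genes were lower (IRAK1, MYD88 and TLR9), TLR6 was higher, and CD180, TLR1, TLR10 and UNC93B1 were not called. In that fit 42.7% of 13765 genes were called, 19% higher and 23.7% lower in MALC, and the median log2 change of all genes was -0.06. When blocked by sample number, 5 member genes were lower. Without suspension 1, 5 were lower, and without MALC 2, MALC 3, suspension 2 or suspension 3 none was higher in limma.

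The genes around the members were described through 7 lists with 100 genes, of which 82 were tested in the gene fit. Of these 31 were higher, 9 lower and 42 not called. The share called was 48.8%, beside 42.7% of all 13765 genes tested (19% higher and 23.7% lower). By list it ran from 50% to 56.2%, apart from 20% for CD180 and B cell receptor partners. The lists were written with earlier results of these data known. Among the other Toll-like receptors and coreceptors, 4 of 8 genes were tested. LY96, the TLR4 coreceptor also called MD-2, was higher in every MALC array: 1077, 1422 and 1365 in MALC, against 609.6, 607.7 and 609.6 in suspension (2.07-fold, limma adjusted p = 0.000477). TLR2, the partner of TLR1 and TLR6, was dim and did not pass (72.4, 67.2 and 79.7 in MALC, against 92.4, 78.1 and 89.7 in suspension; log2 change -0.20, limma adjusted p = 0.0686), but was called lower when blocked by sample number (adjusted p = 0.0361). TLR4, TLR5, TLR8 and CD14 did not pass the filter. The list median was -0.09.

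Of 10 tested genes for folding, transport and processing of endosomal receptors, 3 rose, 2 fell and 5 were not called (median log2 change 0.05). SLC15A4, a lysosomal transporter that TLR7 and TLR9 responses of immune cells require, had 2065, 2134 and 2328 in MALC, against 993.9, 1147 and 1124 in suspension (1.99-fold, limma adjusted p = 0.000283). TASL, the SLC15A4-bound adaptor that recruits IRF5, rose 1.48-fold (406.8 ± 19.9 in MALC and 269.8 ± 12.4 in suspension, SD, n = 3 each). CTSS, a protease of endosomes, rose 1.40-fold, while CTSL and AP3B1, a subunit of the AP-3 sorting complex, were lower with log2 changes of -0.20 and -0.31. The falls numbered 0 without MALC 2 or MALC 3 and 1 without suspension 1, suspension 2 or suspension 3. The chaperone genes HSP90B1 and CNPY3, which fold Toll-like receptors, had log2 changes of -0.11 and 0.03 and did not pass (limma adjusted p = 0.27 and 0.86). The values of TASL and HSP90B1, and of UBE2N and NFKBIB below, come from _x_at probe sets, whose probes may also match other transcripts.

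The kinases and adaptors downstream went both ways. Of 16 tested, 5 rose, 4 fell and 7 were not called, with a median log2 change of 0.03. IRAK2, the IRAK1 relative that joins the same MYD88 complex, had 1446, 1500 and 1529 in MALC, against 550.3, 595.4 and 590.8 in suspension, and thus moved opposite to IRAK1 (2.54-fold, limma adjusted p = 5.86e-05). MAP3K8, a kinase that links this pathway to ERK, rose 2.72-fold, and TIRAP, which bridges some receptors to MYD88, rose by 0.37 on the log2 scale. TRAF6, the ubiquitin ligase after the IRAK kinases, was lower (295.9, 290.1 and 293.2 in MALC, against 335.4, 367.3 and 368.5 in suspension; log2 change -0.27, limma adjusted p = 0.013). UBE2N, its ubiquitin-conjugating partner, and the IKK subunit genes CHUK and IKBKG had log2 changes of -0.44, -0.74 and -0.40 and passed as well. IKBKB, TAB1 and MAP3K7 were not called (log2 changes 0.18, -0.01 and -0.01). The TRAF6 call was lost without MALC 2, suspension 2 or suspension 3 (adjusted p between 0.0522 and 0.0559), and with the mean of its probe sets the change was 0.09 in the other direction (adjusted p = 0.173). The rises numbered 2 without MALC 2 and 3 without MALC 3, and TICAM1, an adaptor of the branch without MYD88, was lost when blocked by sample number (log2 change 0.38, adjusted p = 0.0605).

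Of 12 transcription factors at the end of the pathway, 5 rose, 1 fell and 6 were not called (median log2 change 0.38). IRF7, which in plasmacytoid dendritic cells is activated by TLR7 and TLR9 through MYD88, had 397.5, 305.0 and 346.5 in MALC, against 107.3, 142.7 and 128.7 in suspension (2.57-fold, limma adjusted p = 0.000323). NFKB2 rose 1.96-fold and RELB 1.57-fold, both of the non-canonical NF-kB branch, and REL and RELA rose as well (log2 changes 0.56 and 0.44). When probe sets of the _s_at and _x_at kinds were left out, NFKB2 no longer passed (log2 change 0.13, limma adjusted p = 0.365). IRF8 was the gene that fell (log2 change -0.24), and the falls numbered 0 in limma without MALC 2, MALC 3, suspension 2 or suspension 3. IRF5 did not pass (log2 change -0.15, limma adjusted p = 0.372).

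Of 15 tested negative regulators, 7 rose, 1 fell and 7 were not called (median log2 change 0.22). The rises numbered 4 with samples 2 and 3 averaged, with the mean of probe sets, or without _s_at and _x_at probe sets. With that mean SOCS1, OTULIN and DUSP1 were no longer called. Their log2 changes were then 0.15, 0.05 and 0.10, against 0.50, 0.46 and 0.44 in the main gene fit. TNFAIP3, the ubiquitin editor A20, had 796.8, 602.6 and 637.5 in MALC, against 243.9, 334.6 and 319.0 in suspension (2.21-fold, limma adjusted p = 0.000937). CYLD, a deubiquitinase, rose 1.67-fold and TNIP1, a binding partner of A20, 1.63-fold. TOLLIP and SIGIRR, inhibitors near the receptor, had log2 changes of 0.01 and -0.06 and were not called. NFKBIB, an inhibitor of NF-kB, fell (log2 change -0.39), and the falls numbered 0 in limma without MALC 2 or MALC 3. Blocked by sample number, NFKBIA, another inhibitor of NF-kB, also rose (log2 change 0.43, adjusted p = 0.0131).

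Of 15 tested response genes of stimulated B cells, 8 rose, none fell and 7 were not called (limma; median log2 change 0.44). BCL2A1, an anti-apoptotic gene, rose 2.25-fold, NFKBIZ, a nuclear regulator of NF-kB, 1.76-fold and TRAF1 1.60-fold. NFKBIZ had 499.9, 441.2 and 454.4 in MALC, against 247.3, 271.5 and 252.3 in suspension, with no overlap. Without MALC 2 or MALC 3 the rises numbered 4. Blocked by sample number, 9 rose and 1 fell: CD83 was gained among the rises (log2 change 0.57, adjusted p = 0.017), and TNF was the fall (-0.81, adjusted p = 0.0316). Without MALC 1 there was 1 fall, and without suspension 1 there were 2. Falls numbered 3 with array weights and 4 with both arrays numbered 1 left out, and CD83 was gained among the rises in each. With both of those arrays left out, the log2 change of CD69 turned from 0.69 to -0.61 and that of TNF was -1.20. Of 10 tested genes of CD180 and B cell receptor signalling, 2 rose, SYK (1.34-fold) and BCL10 (1.20-fold), none fell and 8 were not called (limma; median log2 change 0.13). The rises numbered 5 without MALC 1, 1 without MALC 3 or suspension 2, 4 when blocked by sample number, where CD79B and PLCG2 were gained, and 0 in limma with samples 2 and 3 of each form averaged (adjusted p = 0.0975 for SYK and 0.129 for BCL10). There was 1 fall without MALC 1 and 1 without MALC 3.

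**Figure D3:**
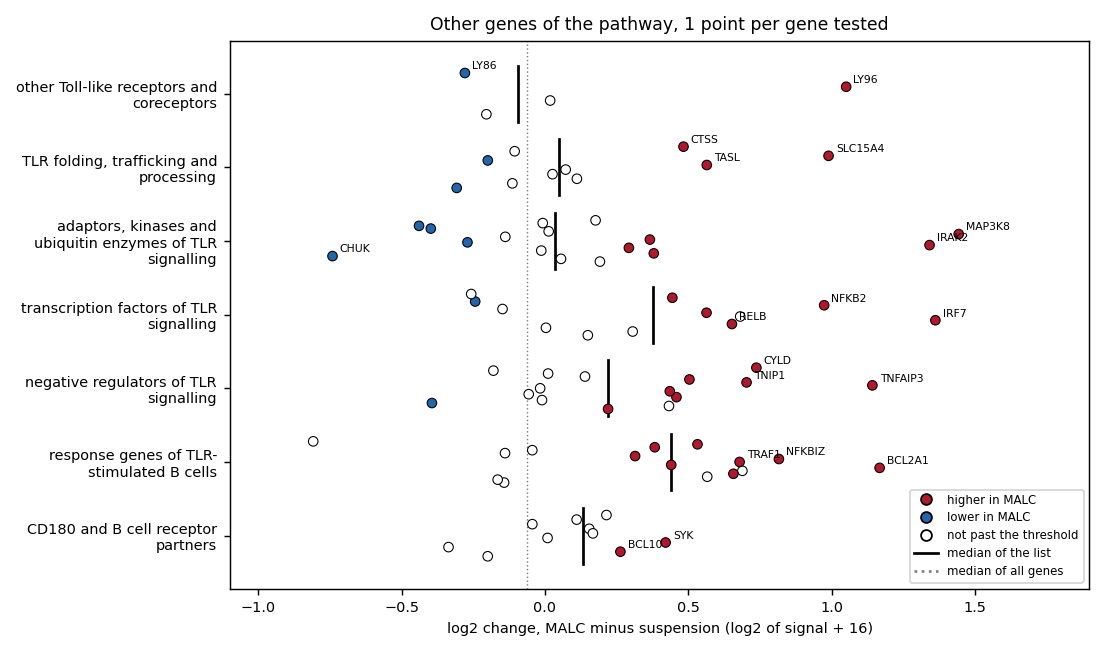
Log2 change (MALC minus suspension, horizontal axis) of each tested gene in the 7 lists, with red points higher and blue points lower in MALC past the threshold, open points not called, and black bars at list medians. The medians run from -0.09 for the other receptors to 0.44 for the response genes, beside -0.06 for all genes (dotted line).

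The genes whose pattern over the 6 arrays was most like that of IRAK1, the called member with the largest fall in the gene fit, were EIF4E2, ZNF777 and FAM111B (Pearson r of 0.9997, 0.9996 and 0.9995). For TLR6, the called member that rose, they were LINC01410, GTF2H3 and ZNF767P (0.9965, 0.9964 and 0.9948). These correlations describe 6 arrays from 2 forms, were chosen as the highest among all genes tested, and are dominated by the difference between the forms.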

How the data were processed

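Each of the 6 samples was hybridised to 1 array. The authors deposited linear intensities, 1 per probe set and array. The submitters' processing notes name MAS5 and no other tool. Its role and version, the background correction and any scaling are not given in the sources used here, and if arrays were scaled to each other a shift of all transcripts would not be seen. Groups came from the sample titles. Probe sets were named through the platform annotation (41091 with 1 symbol, 1801 with several, 11721 with none), and other genes were updated through Entrez identifiers (RefSeq, GRCh38.p14; 41037 matched).

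Intensities were set to log2(value + 16). After the filter, 32768 probe sets were fitted with limma 3.58.1 in R 4.3.3 (two-sided lmFit and eBayes, with trend and no term but group), and p-values were adjusted by Benjamini-Hochberg over all of them. A gene fit used the probe set with the highest mean per gene (13765 genes). Adjusted p-values of members come from the fit over probe sets, and those of other genes from the gene fit. The fits were tested on simulated data. The number of arrays limits the precision.

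The members, lists and alternatives were chosen with earlier results of these data known. All members were named with every probe set; from each list up to 3 genes with the largest change past the threshold were named, and further list genes were named after their values were seen. Among the markers, TRAC had no probe set with its symbol alone, and a few list and marker genes are not reported here.

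Both forms carry the sample numbers 1 to 3. Arrays of equal number deviated from their group means together, with correlations of 0.245, 0.168 and 0.14. Deviations within a form cancel out, so these values are not separate support for a pairing. Pairing by number is an assumption, and the labels do not state it. Numbers 2 and 3 were not told apart, since MALC 3 with suspension 2 gave 0.175 and MALC 2 with suspension 3 gave 0.14. Fits blocked by sample number are given where they change the call of a member or a list gene.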

Additional observations from a re-analysis of the deposited data

How the results depend on the processing

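Over probe sets 17 alternatives were run and over genes 19, and no member probe set changed sign in any of them. MYD88, TLR9 and both IRAK1 probe sets were called throughout where tested. Both IRAK1 probe sets and the called TLR10 probe set carry the _s_at suffix, of probes shared by several transcripts. With _s_at and _x_at probe sets left out, IRAK1 was not tested and 2 member genes were lower (limma). The 13649 probe sets called in all numbered 5128 with samples 2 and 3 of each form averaged, and the 5877 genes numbered 2344 so and 8880 with array weights. Averaging leaves 2 values a form, so fewer degrees of freedom. Member probe sets called numbered 11 with array weights and 10 with both arrays numbered 1 left out, against 6; those lower numbered 8 after quantile normalization, 10 with array weights and 9 with both arrays numbered 1 left out, against 5. None was higher with samples 2 and 3 averaged, where 4 were called in all (limma). Member genes called numbered 7 with array weights and 7 with both arrays numbered 1 left out, against 4; those lower numbered 6 in each of these, 5 with the sample number as a block (the pairing) and 5 with the mean of probe sets, against 3, and with that mean or with averaging 0 were higher (limma). With 1 array left out, probe sets called ranged from 9367 to 15035, genes called from 3993 to 6491, member probe sets called from 5 to 9 (lower 5 to 8, higher 0 to 1) and member genes called from 3 to 6 (lower 3 to 5, higher 0 to 1). The block changed no other member call than those of CD180 and UNC93B1. The cause of these shifts was not tested. Of the 40 list genes called, 15 were called in every alternative that tested them, and 25 lost the call somewhere, 18 of the higher and 7 of the lower genes. The call was lost by 21 of the 40 with samples 2 and 3 averaged, by 15 without MALC 2, by 14 without MALC 3, by 8 without suspension 2, by 8 without suspension 3, by 5 without suspension 1 and by 2 without MALC 1. The block lost 1 and gained 6. Array weights gained 18 and leaving out both arrays numbered 1 gained 17. TRAF6 alone among the 40 changed sign, with the mean of probe sets. CTSS, REL and RELA were lost only with samples 2 and 3 averaged (adjusted p = 0.0579, 0.0584 and 0.0527), and BCL10 also without MALC 3 (0.0543) or suspension 2 (0.0516). Dim signals limit TLR7 and 1 UNC93B1 probe set, for which no detection call was used.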

Other observations

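Some list genes that were not called differed between arrays of 1 form, and they were picked after their values were seen. TLR3, the receptor for double-stranded RNA, had 23.7, 116.6 and 71.1 in MALC, against 30.3, 81.5 and 81.8 in suspension, so that both arrays numbered 1 were the lowest of their form. TNF, a cytokine gene, had 345.8, 323.1 and 356.6 in MALC, against 354.3, 803.5 and 793.6 in suspension, where suspension 1 lay within the MALC range as it did for CD180. CD69, an activation marker, had 454.0, 292.5 and 293.5 in MALC, against 31.99, 450.5 and 462.5 in suspension. FOS, an immediate early gene, had 125.9, 97.5 and 106.7 in MALC, against 38.3, 138.2 and 108.9 in suspension. For CD69 and FOS suspension 1 was the lowest of all 6 arrays.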
